A study of Mus musculus with 2 samples.

Results

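The cells described here are the wild type barcodes with the highest summed signal of 6 contractile, stress and epithelial genes in a culture of mouse embryonic stem cells sampled during mesendoderm differentiation. The study ran single-cell RNA sequencing on AB2.2 mouse embryonic stem cells, an established line, at day 4 of differentiation, as 1 library of cells with PHD2 knocked out and 1 library of wild type cells. PHD2 is the oxygen-dependent prolyl hydroxylase encoded by Egln1, and the sources used here do not give which bases of Egln1 were altered, how many clones the knockout cells came from or how many cultures were pooled. Both libraries were made from day 4 cells brought into suspension with trypsin. Barcodes were kept if they held at least 1000 genes and if mitochondrially encoded transcripts made up no more than 10% of their UMIs, which left 7383 of 7713 knockout barcodes and 9227 of 9651 wild type barcodes. Each barcode was scored by the mean of log(1 + counts per 10000) over Acta2, Acta1, Tagln, Cryab, Sfn and S100a6, and the 15% of wild type barcodes with the highest score became members. That gave 1384 members and 7843 remaining wild type barcodes, out of 16610 barcodes kept in the series. Because each genotype is 1 library, the differences have no replicate check: no p-value is given, and the 95% intervals below cover counting error only.

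Acta2, Acta1 and Actc1 encode the alpha-actins best known from smooth, skeletal and cardiac muscle, and Tagln encodes transgelin, an actin-bundling protein of smooth muscle and of spread cells with stress fibres. Many genes of this apparatus are textbook targets of serum response factor (SRF), which binds a short A/T-rich element called the CArG box and is switched on by myocardin-related cofactors that are released when actin polymerizes. The other 3 score genes have other roles. Cryab encodes a small heat shock protein, Sfn encodes 14-3-3 sigma, a phosphoprotein-binding protein of stratified epithelia, and S100a6 encodes a calcium-binding protein of the S100 family.

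The promoters of 5 actin-related genes are shown because CArG boxes in such promoters are the known point of SRF contact. Each run is the 250 bases before the annotated start in RefSeq on GRCm38.p6, written 5′ to 3′ on the gene's strand, and capitals mark a CArG box found on either strand by its standard consensus. The windows are chr19:34255374-34255623 on the minus strand for Acta2, chr8:123894776-123895025 on the minus strand for Acta1, chr2:114052876-114053125 on the minus strand for Actc1, chr2:156775214-156775463 on the plus strand for Myl9 and chr10:79988350-79988599 on the plus strand for Cnn2.
Acta2: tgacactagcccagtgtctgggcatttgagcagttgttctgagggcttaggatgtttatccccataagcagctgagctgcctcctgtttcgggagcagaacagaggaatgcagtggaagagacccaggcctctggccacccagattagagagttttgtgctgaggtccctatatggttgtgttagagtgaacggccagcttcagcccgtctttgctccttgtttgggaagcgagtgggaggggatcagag
Acta1: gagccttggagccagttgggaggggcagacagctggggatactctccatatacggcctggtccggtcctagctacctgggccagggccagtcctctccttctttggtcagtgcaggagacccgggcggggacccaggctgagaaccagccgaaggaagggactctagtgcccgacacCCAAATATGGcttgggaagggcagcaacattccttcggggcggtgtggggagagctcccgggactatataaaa
Actc1: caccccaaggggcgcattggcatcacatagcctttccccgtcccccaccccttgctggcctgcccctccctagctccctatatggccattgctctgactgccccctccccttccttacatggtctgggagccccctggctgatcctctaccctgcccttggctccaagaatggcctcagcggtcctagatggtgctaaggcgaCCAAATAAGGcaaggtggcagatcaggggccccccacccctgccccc
Myl9: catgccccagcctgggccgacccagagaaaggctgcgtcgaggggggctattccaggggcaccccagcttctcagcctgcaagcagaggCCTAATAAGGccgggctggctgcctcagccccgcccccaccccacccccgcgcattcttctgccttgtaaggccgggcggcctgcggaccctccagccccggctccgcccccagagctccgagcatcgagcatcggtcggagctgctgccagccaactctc
Cnn2: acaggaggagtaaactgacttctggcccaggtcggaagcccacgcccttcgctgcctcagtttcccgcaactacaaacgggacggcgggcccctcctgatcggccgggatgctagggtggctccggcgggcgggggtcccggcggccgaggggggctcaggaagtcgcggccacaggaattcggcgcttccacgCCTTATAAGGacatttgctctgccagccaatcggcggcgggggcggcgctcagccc
The first capital lies 73 bases before the start in Acta1, 47 in Actc1, 161 in Myl9 and 56 in Cnn2. The Acta2 window held no exact match, which required CC, an unbroken run of A or T, and GG. It does hold ccctatatgg and ccttgtttgg, where a C or a G breaks the A/T run. Such near matches were not searched for or marked, so no capitals in Acta2 does not mean that it lacks a CArG box. Such a match is a description of the letters and not a measured binding site. Of 32851 windows in the table, 482 (1.47%) held a CArG box.

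In members, the 6 score genes had the following summed levels in CPM (a gene's UMIs summed over the group and scaled to the group's total), which are the values that chose the members and are given as a description. Acta2, on chromosome 19 at 34241090 to 34255590 of mm10, had 78.6 CPM in members and 7.62 CPM in remaining wild type barcodes. Acta1, on chromosome 8 at 123891769 to 123894751, had 189 CPM in members and 19.1 CPM in the remaining barcodes. Tagln had 2149.7 CPM in members and 512 CPM in the remaining barcodes, so transgelin mRNA was plentiful outside the members too. Cryab had 43.6 CPM in members and 2.99 CPM in the remaining barcodes. Sfn had 1470.0 CPM in members and 356 CPM in the remaining barcodes, and S100a6 had 838 and 92.7 CPM in the same order. The reads of near-identical actin genes may be split between them, which leaves the alpha-actin levels less certain than the others.

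The members did not share 1 uniform profile of these genes. Per barcode, Tagln had a median of 19.9 UMIs per 10000 in members and 2.95 in the remaining barcodes, and Sfn had 14.5 in members and 1.88 in the remaining barcodes. S100a6 had a median of 5.99 per 10000 in members and 0.424 in the remaining barcodes. The median Acta2 and Cryab values were 0 in members, with 90th percentiles of 2.27 and 1.08 per 10000, so their summed levels came from a minority of members. The 14 members with the most UMIs of a gene, 1% of members, held 20.4% of the members' Cryab UMIs, 17.4% of Acta2, 10.9% of Acta1, 4.06% of Tagln and 2.98% of Sfn. Counting, for each barcode, how many of the 6 genes lay above their own 85th percentile in the wild type library, 79 members had all 6, 206 had 5, 313 had 4, 451 had 3, 292 had 2 and 43 had 1. For Acta2 and Cryab that percentile was 0, so any UMI of the gene counted as above it. Across the 9227 wild type barcodes, Pearson correlations between pairs of the 6 genes ran from 0.16 for Acta2 with Cryab to 0.61 for Tagln with Sfn, all from the same cells and libraries.

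**Figure D1:**
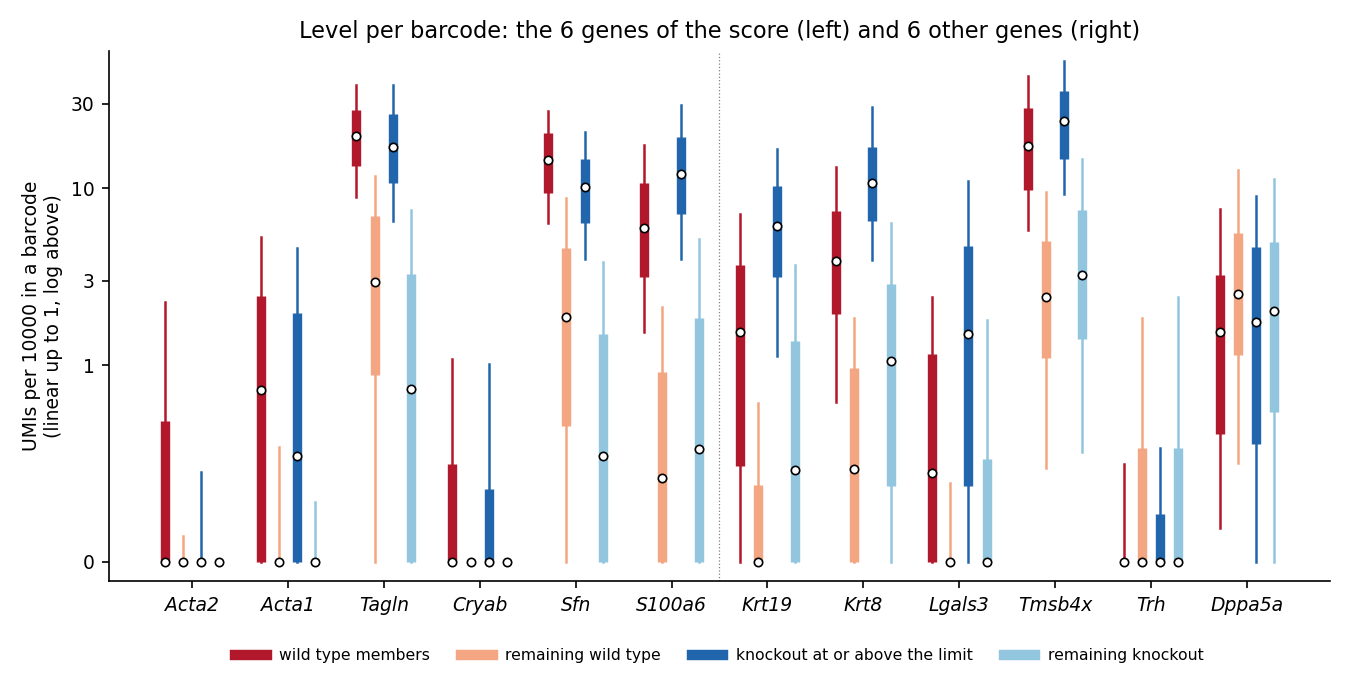
UMIs per 10000 in single barcodes for the 6 score genes and 6 others, on a symmetric log axis, in members, remaining wild type barcodes, knockout barcodes at or above the same score limit and remaining knockout barcodes. Thick bars span the quartiles, thin lines the 10th to 90th percentiles and white dots mark medians. The Tagln median is 19.9 in members against 2.95 in remaining wild type barcodes, while the Acta2 and Cryab medians are 0 in both.

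The score ran without a gap across its limit of 1.17, with 319 members within 0.1 above it and 341 remaining barcodes within 0.1 below it. The 20 members just inside the limit summed to 1524 CPM of Tagln, 933 of Sfn and 332 of S100a6, and the 20 barcodes just outside it to 1245, 1006 and 295 CPM of the same genes. Acta1 had 96.5 CPM just inside and 112 CPM just outside, Acta2 had 17.1 and 25.4 CPM, and Cryab had 12.5 and 16.96 CPM on 8 and 10 UMIs. No gap in the score sets members apart from the barcodes below them.

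Each score gene was also compared after ranking barcodes by the other 5, so that its own level takes no part in the ranking. Between 85.8% and 96.5% of the barcodes so chosen were members. Cryab, left out, was 8.52-fold higher in the barcodes chosen by the other 5 (interval 7.80 to 9.30), with 36.9 CPM there and 4.33 CPM in the rest. Acta2 was 7.34-fold higher (6.90 to 7.80), Acta1 7.25-fold (6.98 to 7.54), S100a6 5.51-fold (5.41 to 5.61), Tagln 3.59-fold (3.55 to 3.62) and Sfn 3.34-fold (3.31 to 3.38). Each of the 6 was higher in the barcodes ranked by the other 5, by a smaller ratio than in the members. The 6 genes were put together with earlier results of these data known, and they correlate over these same cells. These ratios therefore describe their shared pattern and test nothing.

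Members and remaining barcodes also differed in ways that touch every comparison below. Members had a median of 22645 UMIs and the remaining barcodes 20467, and the summed totals were 37517439 and 188146948 UMIs. Mitochondrially encoded genes gave a median of 0.973% of UMIs in members and 1.09% in the remaining barcodes. Calls of cell cycle phase, which read S and G2M gene scores, put 40.3% of members and 22.2% of remaining barcodes in G1, 27.3% and 44.8% in S, and 32.4% and 33.0% in G2M. After thinning each barcode to 14000 UMIs, which kept 1287 members and 7154 remaining barcodes, the G1 shares were 43.7% in members and 30.8% in remaining barcodes, the S shares 17.3% and 30.6%, and the G2M shares 39.0% and 38.6%. Barcodes among those with the highest doublet scores made up 5.71% of members and 8.07% of the remaining barcodes. There were 18 barcode strings found in both libraries after the limits, 7 of them on members. What depth, phase and doublets contribute to the differences below was not tested, but values within their splits are given near the end.

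Of 8117 genes measured, with at least 5 CPM in members or in the remaining barcodes, 516 (6.36%) were higher in members by 1.5-fold or more and 94 (1.16%) were lower, together 7.52%. Since these are genes of the cells that the score ranked, the counts describe the members and test nothing. Each wild type list count below is to be read beside these shares. Among the genes with the highest ratios after the score genes were 3 keratins. Krt19, an intermediate filament keratin of simple epithelia on chromosome 11 at 100140810 to 100148665, had 270.0 CPM in members and 29.0 CPM in the remaining barcodes, a ratio of 9.29 (8.99 to 9.61). Krt8, the type II keratin with which it pairs, had 586 CPM in members and 80.9 CPM in the remaining barcodes (7.24-fold, 7.09 to 7.39). Krt18, another filament partner of Krt8, had 587 CPM in members and 122 CPM in the remaining barcodes (4.80-fold). Krt8 and Krt18 lie side by side on chromosome 15, at 101996698 to 102004482 and 102028180 to 102032027.

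The other genes with the highest ratios among those of at least 50 CPM were of several kinds. Phlda1, an early response gene with a pleckstrin homology-like domain, had 72.3 CPM in members and 7.12 CPM in the remaining barcodes, the highest ratio of them at 10.2. Lgals3, a beta-galactoside-binding lectin, had 93.1 CPM in members and 10.4 CPM in the remaining barcodes (8.93-fold). The phospholipid-binding annexins Anxa2 and Anxa3 had 160 and 162 CPM in members, against 28.4 and 30.4 CPM in the remaining barcodes. Wnt4, a secreted Wnt ligand, had 69.5 CPM in members and 13.8 CPM in the remaining barcodes. Tmsb4x, which encodes the actin monomer-binding thymosin beta 4, had 2075 CPM in members and 436 CPM in the remaining barcodes (4.76-fold). Lmna, which encodes the A-type lamins of the nuclear envelope, had 55.1 CPM in members and 12.6 CPM in the remaining barcodes. S100a11, Ahnak, Tnfrsf12a, Gadd45b and the small heat shock gene Hspb1 completed the 15, at 3.25-fold to 3.62-fold. Per barcode, Krt8 had a median of 3.87 UMIs per 10000 in members and 0.474 in the remaining barcodes, and 14 barcodes held 10.9% of the members' Krt8 UMIs.

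The genes whose log(1 + counts per 10000) ran most closely with the score over the 9227 wild type barcodes, among 2110 genes of at least 50 CPM, were Tmsb4x (Pearson r = 0.72), Krt8 (0.70), S100a11 and S100a10 (0.67 each), Tagln2 (0.66), Tmsb10 and Anxa3 (0.65 each), Krt19 (0.63), and Anxa2 and Myl6 (0.62 each). Those with the lowest r were Ptma, Mkrn1 and Dctpp1 (-0.34 each), Dnmt3b (-0.32) and Hspe1 (-0.30). These are correlations across cells of 1 library that share depth, and they describe likeness of pattern.

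Genes of the contractile apparatus rose widely in members. Of 28 genes on the list, 21 were measured besides the score genes, of which 15 were higher and 0 lower, and their log2 ratios had a median of 0.74 beside -0.02 over all measured genes. Actc1, the cardiac alpha-actin, had 23.3 CPM in members and 4.81 CPM in the remaining barcodes (4.85-fold). The calponins, which bind actin filaments, moved with it: Cnn1 had 82.9 CPM in members and 25.3 CPM in the remaining barcodes (3.28-fold), and Cnn2 had 153 and 74.6 CPM (2.05-fold). Caldesmon, from Cald1, had 233 CPM in members and 81.45 CPM in the remaining barcodes (2.86-fold). Tpm1, which encodes the tropomyosin that lies along actin filaments, had 1047 CPM in members and 491 CPM in the remaining barcodes, and the transgelin relative Tagln2 had 565 and 233 CPM. The regulatory myosin light chain Myl9 had 157 CPM in members and 84.8 CPM in the remaining barcodes (1.86-fold), and the essential light chain Myl6 had 2001 and 1256 CPM (1.59-fold). The cytoplasmic actins lay on either side of the threshold, with Actb at 3152 CPM in members and 2028 CPM in the remaining barcodes (1.55-fold) and Actg1 at 2851 and 1932 CPM (1.48-fold). Myl12b, Myh10 and Tpm3 stayed under 1.5-fold, with 193, 35.5 and 295 CPM in members and 187, 32.7 and 243 CPM in the remaining barcodes.

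Most genes that define muscle cells were at or near 0 in members, although those that were measured were mostly higher. Of 14 smooth muscle genes, 3 were measured, and all 3 (Cnn1, Smtn and Des) were higher, and the whole list summed to 119 CPM in members and 45.6 CPM in the remaining barcodes. Smtn, the cytoskeletal protein smoothelin, had 10.6 CPM in members and 6.08 CPM in the remaining barcodes, and Des, the muscle intermediate filament protein desmin, had 13.6 and 8.47 CPM. Myh11, the smooth muscle myosin heavy chain, had 24 UMIs over all members (0.640 CPM) and 0.133 CPM in the remaining barcodes. Myocd, which encodes the smooth muscle coactivator myocardin, had 7 UMIs in members. Mylk had 0 UMIs in members. The 17 cardiac genes summed to 67.8 CPM in members and 24.8 CPM in the remaining barcodes. Of these, 3 were measured and higher, among them slow troponin C, Tnnc1, with 22.5 CPM in members and 6.83 CPM in the remaining barcodes, while Tnnt2 had 8 UMIs and Nkx2-5 had 6 UMIs over all members. Of 13 skeletal muscle genes, summing to 39.3 CPM in members and 29.1 CPM in the remaining barcodes, 4 were measured and 2 were higher, while Myod1 had 1 UMI and Myf5 and Myog had 0 UMIs in members. The name contractile gene-high therefore refers to part of the score, Acta2, Acta1 and Tagln, and to no muscle cell type. Cryab, Sfn and S100a6 chose these cells as well.

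Of 23 measured SRF and MRTF target genes besides the score genes, 15 were higher and 0 lower (median log2 ratio 0.64). Tgfb1i1, a focal adhesion LIM protein, had 33.2 CPM in members and 8.21 CPM in the remaining barcodes (4.04-fold), and Fhl2, another LIM protein, had 11.4 and 2.64 CPM (4.32-fold). Vcl, the adhesion protein vinculin, had 60.5 CPM in members and 34.0 CPM in the remaining barcodes. The immediate early targets of SRF lay apart from these, with Fos at 59.7 CPM in members and 55.4 CPM in the remaining barcodes and Egr1 at 32.2 and 36.6 CPM. Srf itself had 15.1 CPM in members and 14.1 CPM in the remaining barcodes. Of 16 measured genes on the list of YAP and TAZ targets and partners, 8 were higher and 0 lower (median 0.51). Cyr61, a matricellular YAP target, had 42.8 CPM in members and 24.9 CPM in the remaining barcodes, whereas Ctgf, its relative, had 37.6 and 27.2 CPM and stayed under the threshold. Yap1 had 13.5 CPM in members and 14.4 CPM in the remaining barcodes.

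The wider cytoskeleton and adhesion genes showed the same direction, with a median log2 ratio of 0.65 and 21 of 34 measured genes higher, 0 lower. Flnc, a filamin that cross-links actin, had 36.97 CPM in members and 11.4 CPM in the remaining barcodes. Csrp1, a LIM protein of actin bundles, had 178 CPM in members and 55.4 CPM in the remaining barcodes. Itga5, the fibronectin receptor subunit, had 16.85 CPM in members and 8.24 CPM in the remaining barcodes. Ezr, which links actin to the membrane, had 49.9 CPM in members and 50.6 CPM in the remaining barcodes. Among 14 measured TGF-beta and BMP response genes, 9 were higher and 0 lower (median 0.73). Tgfb1, the ligand, had 16.5 CPM in members and 4.78 CPM in the remaining barcodes, and the inhibitor of differentiation genes Id1 and Id3 had 713 and 324 CPM in members, against 397 and 188 CPM in the remaining barcodes. Smad7, a feedback inhibitor of the pathway, had 34.4 CPM in members and 35.1 CPM in the remaining barcodes.

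**Figure D2:**
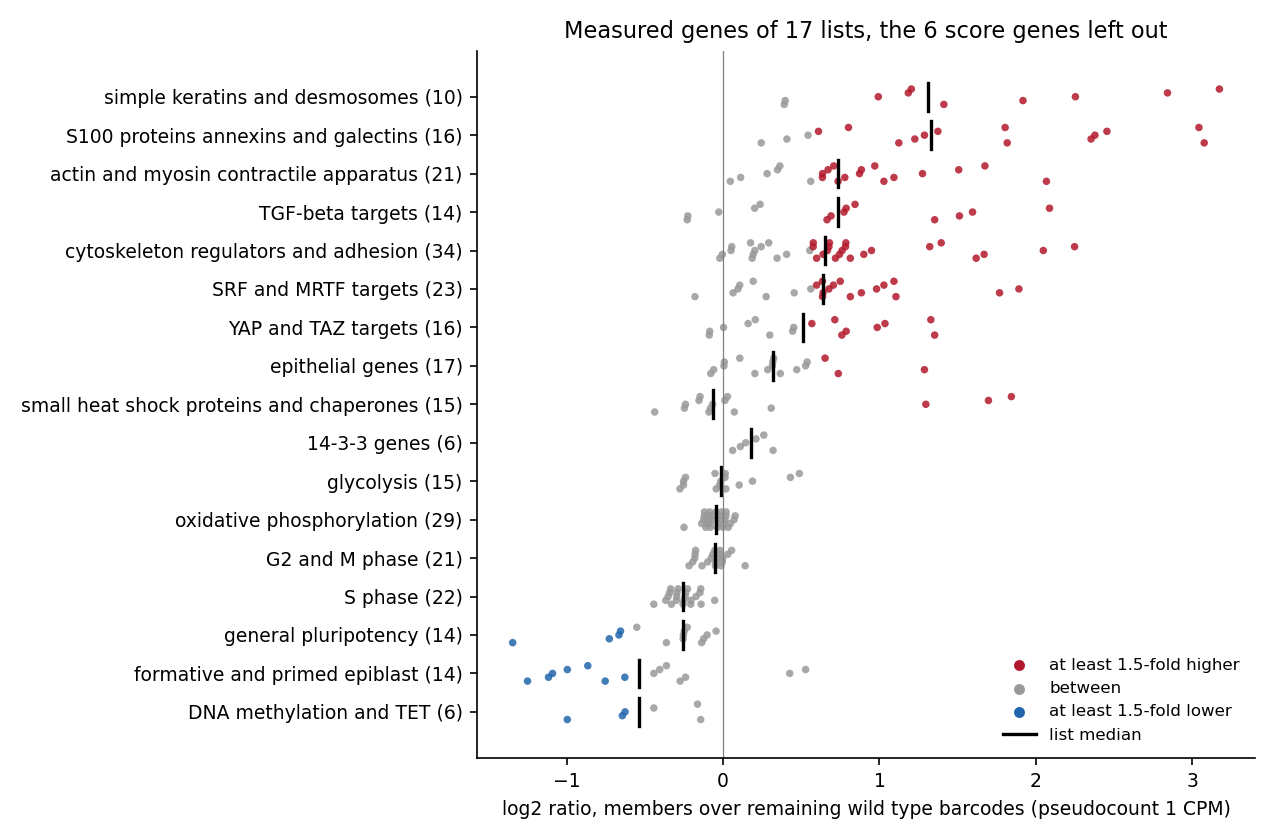
Log2 ratios of members over remaining wild type barcodes for the measured genes of 17 gene lists, with the score genes left out. Each point is a gene, coloured by whether it was higher, lower or between the 1.5-fold limits, and black ticks mark list medians, which are 1.33 for the S100, annexin and galectin list, 0.74 for the contractile list and -0.53 for the formative list.

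The CArG box shown in capitals above was found near the start of 4 of 14 higher contractile genes with a RefSeq window (28.6%: Actc1, Cnn2, Myl6 and Myl9), of 15 of 382 higher genes (3.93%) and of 91 of 6278 measured genes (1.45%). The share among contractile genes that were not higher was not counted, so 28.6% cannot be told apart from a trait of the list. The promoters printed above mostly hold a match and do not stand for the list. None of the 12 genes with a window among the 15 of highest ratio held a CArG box, nor did any of 11 among the 15 of lowest ratio. Of the score genes, 4 had a window, and of these only Acta1 held the exact consensus. GGAATG, the core of the TEAD element through which YAP acts, was found on either strand in 73 of 382 higher genes (19.1%) and 759 of 6278 measured genes (12.1%). TGANTCA, the AP-1 element, was found in 48 of 382 higher genes (12.6%) and 292 of 6278 measured genes (4.65%), and Anxa2 and S100a11 held it among the 15 of highest ratio. No match in a window says only that these letters are absent from it.

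The keratin and desmosome list had 10 measured genes, 8 of them higher and 0 lower, and a median log2 ratio of 1.31. Dsp, which encodes desmoplakin, the link from desmosomes to keratin filaments, had 34.8 CPM in members and 8.47 CPM in the remaining barcodes (4.11-fold). Perp and Jup, also of the desmosome, had 58.5 and 25.6 CPM in members, against 24.8 and 12.4 CPM in the remaining barcodes. Krt7 had 5.01 CPM in members and 1.26 CPM in the remaining barcodes. Pkp2 and Dsg2 stayed under the threshold, with 28.9 and 18.3 CPM in members and 21.7 and 13.7 CPM in the remaining barcodes. The general epithelial genes moved less, with 3 of 17 higher and a median of 0.32. The adhesion genes Cdh1 and Epcam had 104 and 289 CPM in members and 83.04 and 287 CPM in the remaining barcodes, while Cldn4, a tight junction claudin, had 18.2 and 6.88 CPM and was higher.

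Of 16 measured S100, annexin and galectin genes besides S100a6, 13 were higher and 0 lower, with a median log2 ratio of 1.33. Anxa1, an annexin known from inflammation and epithelia, had 19.3 CPM in members and 1.41 CPM in the remaining barcodes, a ratio of 13.7 (11.9 to 15.8). S100a3 had 11.3 CPM in members and 1.41 CPM in the remaining barcodes (8.01-fold), and it belongs to the same gene cluster on chromosome 3 as S100a6. S100a10, the partner of annexin A2, had 1388 CPM in members and 568 CPM in the remaining barcodes. Lgals1 had 463 CPM in members and 197 CPM in the remaining barcodes. Anxa4, Anxa7 and Anxa11 stayed under the threshold.

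The relatives of the remaining score genes moved only in part. Of 15 measured heat shock genes besides Cryab, 3 were higher and 0 lower, with a median log2 ratio of -0.07. All 3 were small heat shock genes. Hspb1 had 867 CPM in members and 267 CPM in the remaining barcodes (3.25-fold), Hspb2 had 21.8 and 5.36 CPM, and Hspb8 had 13.2 and 4.77 CPM. Hspb2, at 50751078 to 50752354, starts 1029 bases from Cryab, at 50751325 to 50756636, on the opposite strand of chromosome 9. The 2 genes overlap at 50751325 to 50752354, which is most of the Hspb2 span and a smaller part of the Cryab span. Each has bases outside the overlap. Since use of strand in counting is not stated, reads from the overlap cannot be told apart, which leaves the Hspb2 level uncertain. The large chaperones stayed under the threshold, with Hspa8 at 1291 CPM in members and 1374 CPM in the remaining barcodes and Hsp90aa1 at 2718 and 2665 CPM. Of the 6 other 14-3-3 genes measured, 0 were higher and 0 lower (median 0.18).

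Of 14 measured general pluripotency genes, 4 were lower and 0 higher, with a median log2 ratio of -0.25. Over all measured genes, 1.16% were lower and 6.36% higher. Pou5f1, the Oct4 gene, had 133 CPM in members and 145 CPM in the remaining barcodes (0.917-fold), and Nanog had 23.1 and 37.0 CPM and was lower. Of 14 measured formative genes, 7 were lower and 0 higher (median -0.53). Dnmt3b, the de novo DNA methyltransferase that marks the formative state, had 63.5 CPM in members and 128 CPM in the remaining barcodes (0.498-fold). Fgf5 had 4.64 CPM in members and 11.2 CPM in the remaining barcodes, and Otx2 had 9.44 and 21.2 CPM. Of 6 measured DNA methylation and TET genes, 3 were lower (Dnmt3b, Dnmt3l and Tet1), with a median of -0.53. The naive list was split, with Klf5 and Spp1 higher, at 40.3 and 65.2 CPM in members against 19.7 and 29.7 CPM in the remaining barcodes. Klf2, at 5.78 and 9.69 CPM, was among its 3 lower genes.

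Trh, the thyrotropin-releasing hormone precursor gene on chromosome 6, had the lowest ratio among genes of at least 50 CPM, with 22.7 CPM in members and 80.8 CPM in the remaining barcodes (0.281-fold). Of the members' Trh UMIs, 36.0% came from 14 barcodes. Pim2, a kinase gene, had 77.5 CPM in members and 142 CPM in the remaining barcodes, and Tdgf1, the Nodal co-receptor, had 113 and 180 CPM. Mt1, a metallothionein, had 1985 CPM in members and 3041 CPM in the remaining barcodes, and the stem cell gene Dppa5a had 393 and 629 CPM. The other genes among the 15 lowest included Mkrn1, Fkbp11, Phc1, Snrpn, Gsta4, Syce2, Hist1h2ae and Cenpm, at 0.661-fold to 0.697-fold, of which Mkrn1 and Fkbp11 passed the threshold.

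Streak genes did not move together, with 2 of 8 measured primitive streak genes higher, 3 lower and a median log2 ratio of -0.06. The shares over all measured genes were 6.36% higher and 1.16% lower. Brachyury, T, had 7.65 CPM in members and 5.31 CPM in the remaining barcodes, while Eomes had 8.34 and 12.7 CPM and Fgf8 20.1 and 42.8 CPM and both were lower. Of the 205 wild type barcodes with at least 2 UMIs of T, 45 (22.0%, exact binomial interval 16.5% to 28.2%) were members. Deeper barcodes reach such a limit in raw UMIs more easily, and members had more UMIs (median 22645 against 20467). T itself stayed under the threshold. In quartiles of the members by rising score it had 8.91, 7.88, 8.01 and 5.56 CPM. Of 36 wild type barcodes with at least 5 UMIs of Zscan4 genes, which mark a state like that of the early cleavage embryo, 0 were members, which allows a share of up to 9.74% by the exact interval. Of 3 measured trophoblast genes, all 3 were higher (Krt7, Ascl2 and Peg10), but Cdx2 had 1.25 CPM in members and 1.31 CPM in the remaining barcodes. The surface ectoderm list gave 3 higher of 4 measured genes, Krt8, Krt18 and Wnt6, while Krt5 had 0 UMIs in members and Krt14 had 1.76 CPM there and 0.308 CPM in the remaining barcodes. Of 8 measured mesenchymal genes, 5 were higher (median 0.58), among them Vim, the filament protein vimentin, with 179 CPM in members and 67.3 CPM in the remaining barcodes, whereas the mesodermal factor Twist1 had 5.73 and 7.585 CPM. Feeder fibroblast genes summed to 10.98 CPM in members and 9.40 CPM in the remaining barcodes, and 1 of 14 was measured.

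Among 14 measured immediate early genes, 5 were higher and 0 lower (median 0.48), with Ier3 at 30.04 CPM in members and 9.71 CPM in the remaining barcodes and Junb at 91.0 and 41.8 CPM. Among 12 measured interferon response genes, 4 were higher (median 0.31), including Ifitm3, with 523.5 CPM in members and 310 CPM in the remaining barcodes. Beside 6.36% of all measured genes higher, for p53 targets the count was 2 of 21 (median 0.09), for apoptosis genes 3 of 17 (0.14), for ATF4 targets 2 of 23 (0.07) and for NRF2 targets 3 higher and 1 lower of 19 (0.04). Of 14 measured genes of the hypoxia response, Slc2a1 and Bhlhe40 were higher, at 72.8 and 12.4 CPM in members against 34.4 and 2.15 CPM in the remaining barcodes, and Bnip3 and Pdk1 were lower, at 7.01 and 5.68 CPM against 10.6 and 10.6 CPM. Egln1 had 17.2 CPM in members and 18.3 CPM in the remaining barcodes. Glycolysis (15 genes, median -0.01), oxidative phosphorylation (29 genes, -0.05), ribosomal protein (19 genes, -0.04), S phase (22 genes, -0.25) and G2M genes (21 genes, -0.05) had 0 called in either direction, as did 12 mitochondrially encoded genes (-0.23).

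The other lists held few measured genes, and their counts stand beside 6.36% higher and 1.16% lower over all measured genes. Of 6 measured inhibitors of cyclin-dependent kinases, 1 was higher, Cdkn2b, with 7.73 CPM in members and 2.67 CPM in the remaining barcodes. Of 12 measured basement membrane and matrix genes, 5 were higher and 0 lower (median 0.16), and of 13 imprinted genes, 2 were higher, Peg10 with 42.6 CPM in members and 11.5 CPM in the remaining barcodes and Sgce with 11.1 and 5.54 CPM. Of 5 measured visceral endoderm genes, 2 were higher and 1 lower, of 3 neuroectoderm genes, 2 were higher and 1 lower, and of 2 lateral and extraembryonic mesoderm genes, both were higher. Nascent mesoderm had 1 of 2 measured genes higher, and definitive endoderm had 1 measured gene, Trh, which was lower. The single measured gene of the endothelial and blood list, Etv2, was lower, with 7.49 CPM in members and 11.7 CPM in the remaining barcodes. Of the 2 germ cell genes and the 1 gene of the early cleavage-like list that were measured, 0 were called.

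Along the whole score the genes changed by degrees. In the 10 deciles of wild type barcodes by score, each of 922 or 923 barcodes, Krt8 had 31.1, 34.5, 40.9, 48.7, 49.7, 76.2, 104, 148, 253 and 739.6 CPM, in order of rising score. Tmsb4x had 170.1 CPM in the lowest decile and 2435 CPM in the highest, and Myl9 had 33.9 and 169 CPM. Dnmt3b had 159 CPM in the lowest decile and 55.6 CPM in the highest, and Trh had 139.9 and 18.2 CPM. Pou5f1 had 147 CPM in the lowest decile and 127 CPM in the highest, and Egln1 had 18.98 and 17.7 CPM. Median UMIs also grew along the score, with 18061 in the lowest decile and 22728 in the highest, and their part in these trends was not tested.

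**Figure D3:**
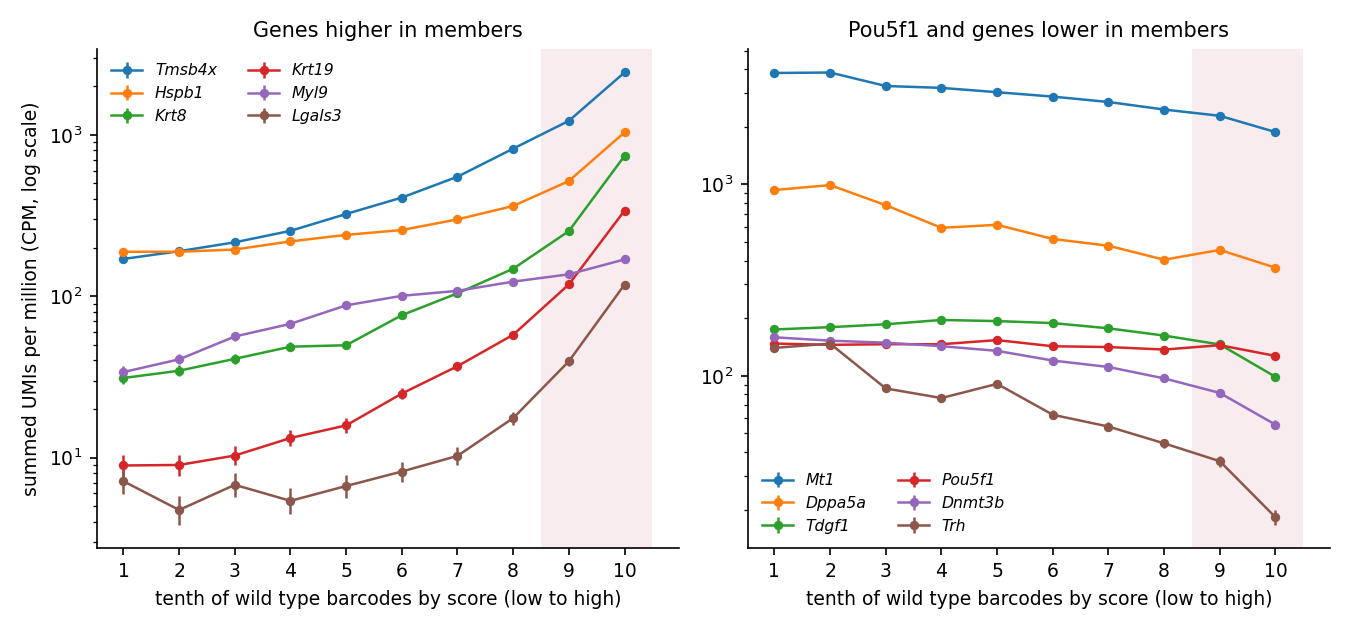
Level in CPM, on a log axis, of 12 genes in the 10 deciles of wild type barcodes ordered by score, with 95% Poisson intervals. Members make up all of the highest decile and 461 of 923 barcodes of the decile before it, which are shaded. Krt8 stands at 31.1 CPM at the left and 739.6 CPM at the right, and Dnmt3b at 159 and 55.6 CPM.

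In quartiles of the members by score, 346 barcodes each, Krt8 had 278, 392, 587 and 1145 CPM, and Anxa1 had 9.61 CPM in the lowest and 35.0 CPM in the highest. The score gene Acta2, whose rise the ordering itself favours, had 31.6, 39.1, 62.7 and 192 CPM. Nanog had 26.7 CPM in the lowest quartile and 15.98 CPM in the highest, and Trh had 34.0, 20.2, 17.7 and 18.1 CPM. The median UMIs of the 4 quartiles were 22771, 22174, 23534 and 22232, so depth did not grow with them.

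The 6 score genes fall into the actin-side genes Acta2, Acta1 and Tagln and the other 3, Cryab, Sfn and S100a6, and the 15% of wild type barcodes highest by each set of 3 overlapped in part. The sets shared 701 barcodes, all members. Another 683 barcodes were high by the actin-side genes alone, of which 273 were members, and 683 were high by the other 3 alone, of which 404 were members. The remaining 7160 barcodes, 6 of them members, were in neither set.

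Krt8, Krt19, Lgals3, Anxa2 and Anxa1 were higher in barcodes high by Cryab, Sfn and S100a6 alone than in those high by the actin-side genes alone, Actc1 and Myl9 were the other way round, and Anxa6 and Anxa11 were nearly equal. Krt8 had 716 CPM where both sets were high, 182 CPM with the actin-side genes alone, 469 CPM with the other 3 alone and 68.8 CPM in neither. Krt19, Lgals3, Anxa2 and Anxa1 had the same order, and Anxa1 had 21.6, 3.72, 18.1 and 1.09 CPM across these 4 sets. Actc1, in contrast, had 28.9 CPM where both were high, 25.5 CPM with the actin-side genes alone, 6.03 CPM with the other 3 alone and 3.87 CPM in neither. Myl9 had 169, 201, 89.1 and 78.8 CPM in that order, so its highest level was in barcodes high by the actin-side genes alone. Cnn1 was intermediate, with 96.8, 73.2, 44.9 and 22.8 CPM. Tagln2 had the order of Krt8 with smaller steps, at 634, 379, 466 and 221 CPM. Dnmt3b was lower in all 3 high sets, with 58.3, 92.8, 66.0 and 131 CPM in the same order. Median UMIs were 23207, 21499, 21564 and 20404 in the 4 sets.

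**Figure D4:**
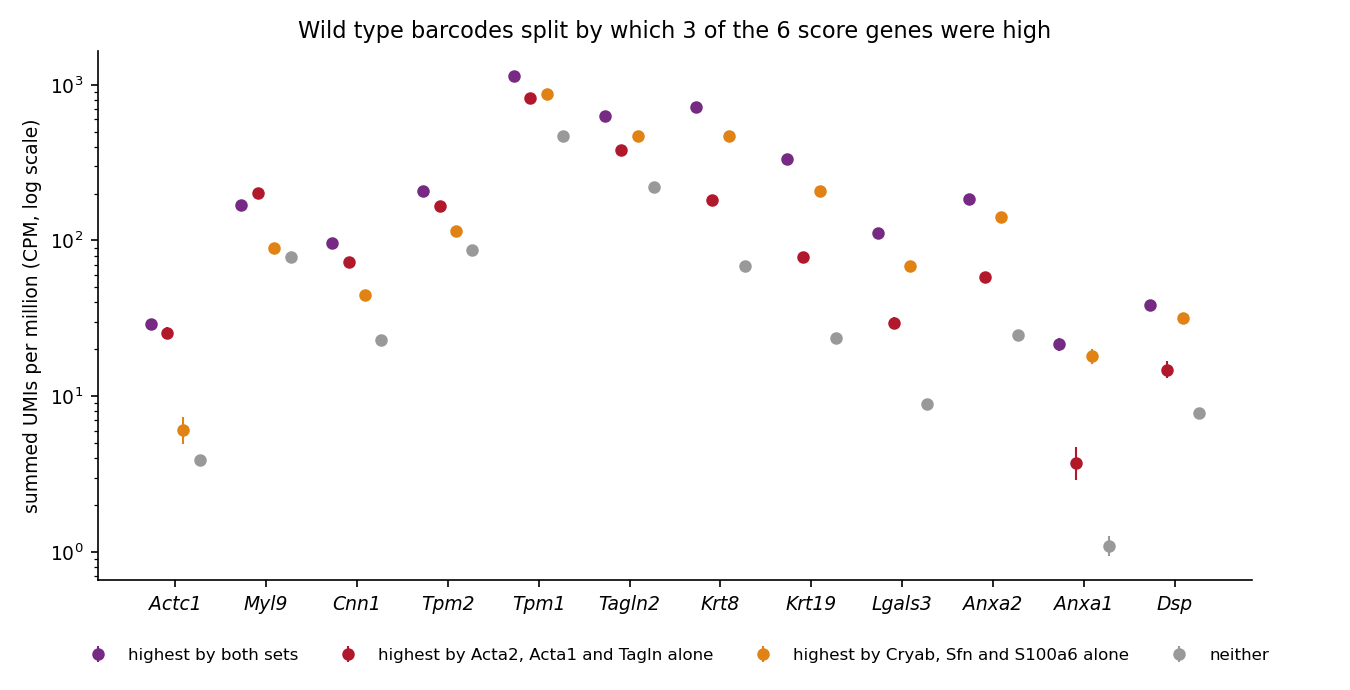
Level in CPM, on a log axis, of 12 genes in wild type barcodes high by both sets of 3 score genes (701 barcodes), by Acta2, Acta1 and Tagln alone (683), by Cryab, Sfn and S100a6 alone (683) and by neither (7160), with 95% Poisson intervals. Actc1 and Myl9 stand higher with the actin-side genes alone (25.5 and 201 CPM) than with the other 3 alone (6.03 and 89.1 CPM), and Krt8 stands the other way (182 and 469 CPM).

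The share of UMIs from chromosome 8 also moved with membership. Of 1415 wild type barcodes with under 6% of UMIs from this chromosome, 26.9% were members (24.6% to 29.2%), and of 7812 barcodes at 6% or more, 12.9% were (12.1% to 13.6%). The first of these groups held 27.5% of the members and 15.3% of the wild type library. Acta1 itself lies on chromosome 8, but its UMIs were left out of the chromosome 8 count. Other chromosome 8 genes that differed in members stayed in it. Of 491 measured genes of this chromosome, 24 were higher in members and 11 lower (median log2 ratio -0.08). Over all 8117 measured genes, 516 were higher and 94 lower. Within the barcodes under 6%, Krt8 was 7.05-fold higher in members, Krt19 8.72-fold and Myl9 1.74-fold, and within those at 6% or more the ratios were 6.82, 8.92 and 1.94. Trh was 0.279-fold and 0.310-fold in the same splits. Krt8 was 6.56-fold higher among G1 calls, 6.80-fold among S calls and 6.99-fold among G2M calls, and 8.27-fold in the lowest and 6.30-fold in the highest tertile of total UMIs. The 85 named genes past the fold threshold, the 6 score genes among them, kept their direction in each of these splits and in each of the 31 settings tried. Settings that changed only the CPM minimum, the fold or the pseudocount could not alter a gene's direction. The score genes chose the members, and many of the others were named for their extreme ratios.

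The same limit on the score was reached by 526 of 7383 knockout barcodes, 7.12% (6.55% to 7.74%), against 15% of wild type barcodes by construction. The median score was 0.318 in the knockout library and 0.574 in the wild type library. This share depended on which genes entered the score, since it was 4.42% without S100a6 and 9.86% without Sfn, each against 15% of wild type barcodes. The knockout and wild type samples are single libraries, so genotype and library cannot be told apart.

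The knockout barcodes at or above the limit shared most of the higher genes with the wild type members. Of 8822 genes measured in this comparison, 826 (9.36%) were higher and 263 (2.98%) lower in them, together 12.3%. Leaving out the score genes, 434 genes were higher in both libraries, which is 85.1% of the 510 higher in the wild type. It is 65.8% of the 660 genes higher in the knockout that were also measured in the wild type. Another 48 were lower in both, 27.9% of those lower in the knockout and 51.1% of those lower in the wild type, counted in the same ways. None (0) were called in opposite directions. Krt8 had 1329 CPM in the high-scoring knockout barcodes and 241 CPM in the remaining knockout barcodes, and Krt19 had 722 and 129.8 CPM. Cnn1 had 104 CPM in the high-scoring knockout barcodes and 23.2 CPM in the rest, and Cald1 had 221 and 76.7 CPM. The contractile list had 17 of 21 measured genes higher and 0 lower, with a median log2 ratio of 0.97, and the S100, annexin and galectin list had 16 of 17 higher and 0 lower, with a median of 1.33, beside -0.01 over all genes.

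For the lineage lists the counts were as follows in each library. The knockout counts are to be read beside 9.36% higher and 2.98% lower over all genes measured in that comparison. In the knockout, 9 of 14 measured primitive streak genes were lower in high-scoring barcodes and 1 higher (median log2 ratio -0.90), and 6 of 7 nascent mesoderm genes were lower (median -1.37). In wild type members 3 of 8 measured streak genes were lower. More streak genes reached 5 CPM in the knockout, so the 2 streak counts cover different genes and are not like for like. T had 197 CPM in high-scoring knockout barcodes and 335 CPM in the remaining knockout barcodes, and Mesp1, the cardiac mesoderm factor, had 44.3 and 236 CPM. In wild type cells Mesp1 had 0.240 CPM in members and 0.441 CPM in the remaining barcodes, on 9 UMIs in members, which is under the 5 CPM minimum. The mesenchymal list had 4 of 12 measured genes higher and 7 lower in the knockout (median -0.67). The general epithelial list had 12 of 17 genes higher in high-scoring knockout barcodes (0 lower, median 0.76), with Cdh1 at 118 CPM there, a ratio of 1.97 to the remaining knockout barcodes. Median UMIs were 22884 in the high-scoring knockout barcodes and 21262 in the rest, and the shares of G1 calls were 54.2% and 26.3%, or 40.97% and 17.3% after thinning. Whether these differences between libraries exceed the spread between cultures cannot be tested with 1 library each.

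**Figure D5:**
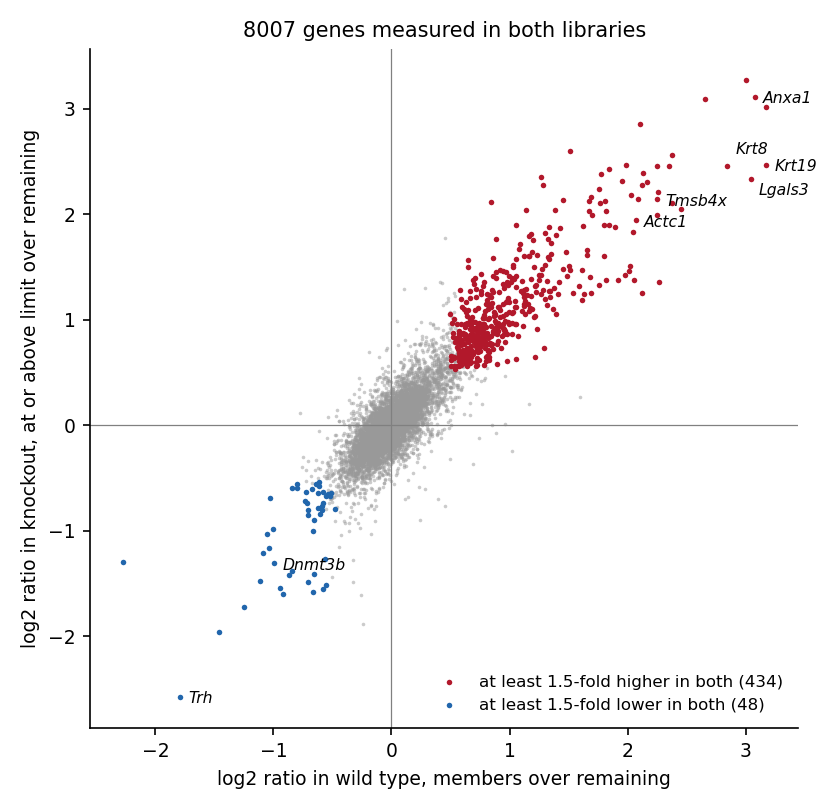
Log2 ratio in the wild type library (members over remaining barcodes) against the log2 ratio in the knockout library (barcodes at or above the same score limit over the rest), each point a gene measured in both, with the score genes left out. Of 8007 genes, 434 were higher in both (red) and 48 lower in both (blue), and none was called in opposite directions.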

How the data were processed

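The deposited matrices hold UMI counts per gene and barcode, made by the authors with Cell Ranger 4.0.0 per the file headers; mm10 and Seurat are named in the submitters' processing notes, and the sources used here do not give whether strand was used. The 9651 wild type barcodes held 226179474 UMIs and the 7713 knockout barcodes 173470962. UMIs were summed over barcodes of a group and divided by the group's total to give CPM. A gene was measured with 5 CPM in either group and called at 1.5-fold, and log2 ratios used a pseudocount of 1 CPM. Intervals are exact: Poisson for levels, conditional binomial for ratios, Clopper-Pearson for shares, all at 95%. Calling was tested on simulated counts.

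Members and the 47 gene lists were chosen with earlier results of these data known, and 7 of 700 list genes were not found by symbol. Genes named were the score genes, the 15 highest and 15 lowest ratios of at least 50 CPM, the ends and the most abundant gene of each list, called genes of 4 lists, the 10 highest and 5 lowest correlations with the score, and markers of other cell types. A few genes these rules name are not reported here. Predicted, ribosomal protein and mitochondrially encoded genes stayed out of the 15. Further list members were picked as examples after their values were seen. Scrublet called 0 doublets by its own threshold, which means it did not work as a caller, so an alternative removed the highest scores, up to 0.8% per 1000 barcodes. Unused columns of samples numbered 0. Analyses used Python 3.11.15, NumPy 2.4.6, SciPy 1.17.1, pandas 2.3.3, Scanpy 1.11.5 and Matplotlib 3.10.9. Gene positions are from GENCODE M21.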

Additional observations from a re-analysis of the deposited data

How the results depend on the processing

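Over 31 settings, 5436 alternative values of 192 results were compared: 3996 stayed within set limits, 1440 moved further, and 0 called values changed sign. The limits were the counting interval for gene ratios and the knockout share, and 1.5 times for counts of genes. For list medians they were an interval over the genes of the list, or the full range in short lists. That is a spread between genes and not counting error. Of 150 named genes, 22 changed sign under some setting, as did 8 of 39 list medians, and none of the 85 named genes past the fold threshold did. A change of only the CPM minimum, the fold or the pseudocount could not change the sign of a gene. The count of genes higher in members, 516, was 954 with a 1 CPM minimum and 204 at 2-fold, and 382 to 742 under the others. The count of lower genes, 94, was 405 in the lowest and 214 in the middle tertile of total UMIs, 159 among G2M calls, 348 with a 1 CPM minimum, 43 with a 10 CPM minimum, 15 at 2-fold and 188 among barcodes with under 6% of UMIs from chromosome 8. Fewer barcodes and UMIs enter these splits. The knockout share at the limit, 7.12%, was 4.31% with 10% of barcodes as members and 10.8% with 20%, 8.93% without Tagln, 9.86% without Sfn and 4.42% without S100a6 in the score. Within splits of both libraries it was 3.05% and 7.78% at or above and below the median chromosome 8 share, 6.36% and 8.05% at or above and below 6%, 5.94% and 8.80% in the middle and highest tertile of UMIs, and 13.7%, 3.69% and 5.62% among G1, S and G2M calls. The cause was not tested. The 15% of wild type barcodes holds over the whole library and not within these splits. Members made up 8.45% and 21.5% of wild type barcodes at or above and below the median chromosome 8 share. They made up 12.9% and 26.9% at or above and below 6%. The G1, S and G2M calls held 558, 378 and 448 members beside 1742, 3515 and 2586 remaining wild type barcodes. The 6% split and the removal of the 1% of members with the highest score, which left 508 higher and 93 lower genes, were chosen after seeing the data. No paired analysis was possible because each genotype is 1 library. Levels under 5 CPM rest on few UMIs, and with 1 library per genotype no comparison has a replicate check.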

Other observations

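A few genes outside the lists, chosen after their values were seen and standing for no group, were also higher in members. Krt17, a keratin of stressed and basal epithelia, had 19.4 CPM in members and 1.55 CPM in the remaining wild type barcodes, a ratio of 12.6 (10.95 to 14.4). Tgm1, the transglutaminase that cross-links the cornified envelope, had 7.44 CPM in members and 1.17 CPM in the remaining barcodes (6.33-fold), Sbsn, which encodes suprabasin, had 12.7 and 2.15 CPM, and Krtdap, a keratinocyte differentiation gene, had 10.6 and 1.80 CPM. In the knockout library Krt17 had 25.4 CPM in barcodes at or above the same limit and 1.73 CPM in the rest, and Tgm1 had 9.94 and 1.19 CPM.

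The genes that follow were chosen in the same way. The chemokine gene Cxcl10 had 22.5 CPM in members and 4.93 CPM in the remaining wild type barcodes, the chemokine gene Cxcl16 had 36.7 and 9.52 CPM, Ltb, which encodes lymphotoxin beta, had 40.7 and 9.34 CPM, and the NF-kB inhibitor gene Nfkbia had 59.0 and 26.0 CPM (2.27-fold). Among genes lower in members, Tdh, which encodes the threonine dehydrogenase typical of mouse embryonic stem cells, had 16.9 CPM in members and 48.4 CPM in the remaining barcodes (0.349-fold). Tdh had 7.87 CPM in high-scoring knockout barcodes and 33.4 CPM in the remaining knockout barcodes.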
